A study of Caenorhabditis elegans with 10 samples.

Results

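The nuclear-encoded respiratory chain genes described here were 35 Caenorhabditis elegans genes listed by gene name, with no measured value in the rule. They comprised 7 genes of complex I, 4 of complex II, 6 of complex III, the cytochrome c gene cyc-2.1, 7 of complex IV and 10 of complex V. All 35 were found by name among the 46756 genes of the count table, and all 35 passed the filter on low counts. They lay on all 6 chromosomes, with 9 genes each on I and III, 3 on II, 4 on IV, 4 on V and 6 on X (WBcel235).

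Whole L1 larvae of 2 hermaphrodite strains supplied the RNA, pbrm-1(control) on the one side and pbrm-1(TS-KO) on the other, as 5 polyA-selected libraries a strain with the replicate numbers 1, 4, 5, 6 and 7. Both strains carried the same pbrm-1 allele, rd31, tagged with GFP and flanked by loxP sites, together with an unc-119 mutation rescued by a transgene. The hnd-1 promoter drove ZIF-1 linked to a GFP-binding nanobody, together with Cre recombinase, in pbrm-1(TS-KO) (rdIs74), and only ZIF-1 in pbrm-1(control) (rdIs79). The hnd-1 promoter acts in embryonic mesoderm, mainly the precursors of body wall muscle and of the somatic gonad, so most cells of a typical pbrm-1(TS-KO) larva kept pbrm-1. In a few percent of these larvae the paper saw no GFP in any cell, which it thought likely to come from recombination in the mother. Both strains were grown at 20 °C and their embryos were hatched overnight without food, with the strains reared and collected in parallel on each of 5 days. PBRM-1 is the signature subunit of the PBAF chromatin remodeling complex, and the comparison asks which genes change when it is removed from the mesoderm.

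The respiratory chain lies in the inner mitochondrial membrane. Complex I takes electrons from NADH and complex II takes them from succinate; both pass them through ubiquinone to complex III, and cytochrome c carries them on to complex IV, which reduces oxygen. Complexes I, III and IV pump protons, and complex V, the ATP synthase, uses the proton gradient to make ATP. Muscle is rich in mitochondria, and most subunits of complexes I, III, IV and V, and all those of complex II, are encoded in the nucleus.

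Between 35922561 and 46553938 reads per library were counted on genes, and the 35 genes together took between 1.41% and 1.51% of them. The sparsest value among the 35 genes was 365 counts and the largest 126859. Levels are given as CPM, which are counts scaled to the library total after TMM normalization. Marker lists for body wall and pharyngeal muscle, intestine, neurons, hypodermis and germline were all detected, and the summed level of 7 markers of adult oocytes, yolk and sperm was at most 30.93 CPM, as against at least 2101 CPM for 5 neuronal markers. Control replicate 5 stood apart in its hypodermal markers, whose summed level was 741.4 CPM there and at most 226 CPM in the other 9 libraries, so values without it are given beside the results. Control replicates 1 and 4, at 170.6 and 226 CPM, also lay above every pbrm-1(TS-KO) library (90.52 to 127.7 CPM). Control replicates 6 and 7, at 116.8 and 91.73 CPM, did not. The median log2 fold change of the 5 hypodermal markers was -0.305. The main test described below called 0 of them, and DESeq2 called 1 lower. pbrm-1 itself had 262.6 ± 23.9 CPM in pbrm-1(control) and 247 ± 11.5 CPM in pbrm-1(TS-KO) (SD, n = 5 each), with overlapping libraries. Since only its last exons are flanked by loxP sites, a count over the whole gene is a weak check of the deletion. At the exon level, the paper reported that most of those last exons were significantly lower in pbrm-1(TS-KO).

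None of the 35 respiratory chain genes passed the test between the strains, and their fold changes were small. After Benjamini-Hochberg adjustment of edgeR's quasi-likelihood p-values, 0 of 35 were at or under 0.05, whereas 7.72% of the 16817 genes tested were. By direction, 0 of 35 were called higher and 0 lower, beside 3.44% and 4.28% of all genes tested. The lowest adjusted p among the 35 genes was 0.104. At an unadjusted p under 0.05 there were 3 of 35, nuo-1, ucr-2.2 and cox-7C, as against 24.1% of all genes tested. DESeq2 called none of the 35, edgeR with a block for the replicate number called cox-7C, and limma-voom with sample quality weights called ucr-2.2 and cox-7C. These fits called 10.8%, 10.9% and 17.2% of the genes they tested. All 35 genes had overlapping libraries in the 2 strains, while the strains did not overlap for 9.26% of all genes tested.

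**Figure D1:**
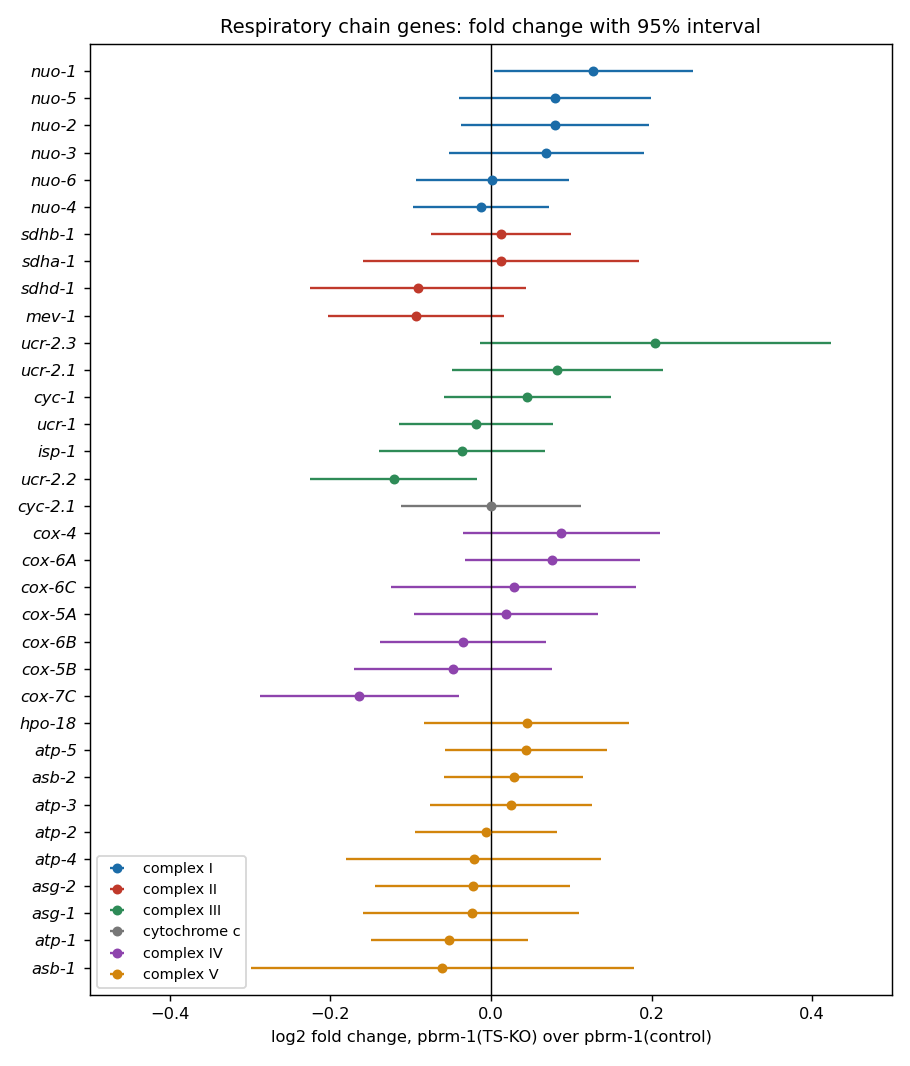
Log2 fold change of 34 of the 35 genes in pbrm-1(TS-KO) over pbrm-1(control) (points, edgeR) with its approximate 95% interval (bars), ordered by complex and colored by it. The intervals of nuo-1, ucr-2.2 and cox-7C leave out 0, those of the other genes contain it, and ucr-2.3 and asb-1, the genes with the fewest counts, have the widest bars.

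Of the 35 genes, 20 were above the control level and 15 below it. Their log2 fold changes ran from -0.16 to 0.20, and the median was 0.01. Over all genes tested the median was 0.00045 on the log2 scale and 50.1% were above 0. The size of the change was under 0.1 on the log2 scale for 31 of the 35 genes and for 40% of all genes tested. The 35 genes were also better measured than most. Only 48.9% of all genes tested reached the lowest mean CPM among them. The median half-width of the 95% intervals was 0.118 for the 35 genes and 0.238 for all genes tested. The 95% intervals of the log2 fold changes lay within 0.25 of 0 for 31 genes, and the outermost bounds were -0.30 for asb-1 and 0.42 for ucr-2.3. RNA came from every cell of the larva, so these intervals bound the change in whole larvae and not that in mesodermal cells, and fewer cells of a type cannot be told apart from less RNA per cell. Without control replicate 5 again none of the 35 passed (5.33% of all genes did), and no gene's log2 fold change moved by more than 0.0464.

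In complex I, 6 of 7 genes were above the control level and 1 below it, and the median log2 fold change was 0.07. It was 0.03 without control replicate 1 and 0.02 in limma-voom. None passed the test. nuo-1 (WBGene00003831; chromosome II, 11097837 to 11100146), which encodes the subunit that binds NADH, had 457, 519, 492, 521 and 527 CPM in control replicates 1, 4, 5, 6 and 7. In the pbrm-1(TS-KO) libraries of the same numbers it had 515, 577, 516, 544 and 594 CPM. Each pbrm-1(TS-KO) library was above its own partner, but 2 of the 5 lay below the highest control libraries. The log2 fold change of nuo-1 was 0.13 (standard error 0.0563, 95% interval 0.00362 to 0.251). Its adjusted p was 0.195 in edgeR's test, 0.0617 with the replicate block, 0.223 in DESeq2 and 0.343 in limma-voom. nuo-2, the equivalent of the mammalian subunit NDUFS3, had 108, 117, 110, 123 and 114 CPM in the control libraries. In pbrm-1(TS-KO) it had 114, 127, 114, 119 and 130 CPM, which gave 0.08 on the log2 scale (standard error 0.0536, adjusted p = 0.395). The strains overlapped over most of their range, and replicate 6 went the other way.

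None of the other complex I genes had an unadjusted p under 0.05. nuo-5, the iron-sulfur subunit related to NDUFS1, differed by 0.08 on the log2 scale (adjusted p = 0.402), and nuo-3 by 0.07. In the annotation 783 of the 1078 exonic bases of nuo-3 are shared with WBGene00303007, a protein-coding gene on the same strand that has no row in the count table, so reads of these genes cannot be told apart. The accessory subunit genes nuo-4 and nuo-6 had values of -0.01 and 0.0015 on the log2 scale, the closest to 0 of the complex, with intervals from -0.0967 to 0.0722 and from -0.0937 to 0.0968.

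Complex II, succinate dehydrogenase, also belongs to the citric acid cycle, and none of its 4 genes passed the test. The catalytic subunits, the flavoprotein sdha-1 and the iron-sulfur protein sdhb-1, both differed by 0.01 on the log2 scale (adjusted p = 0.945 and 0.881). The membrane anchor subunits mev-1 and sdhd-1 had values of -0.09 each. mev-1 (WBGene00003225; chromosome III, 10334277 to 10335168), known for a mutation that shortens life under high oxygen, had 97.9, 85.1, 98.3, 97.8 and 88.3 CPM in control replicates 1, 4, 5, 6 and 7. In pbrm-1(TS-KO) it had 88.8, 85.5, 86.7, 89.8 and 87.2 CPM. The pbrm-1(TS-KO) libraries fell inside the control range, and 3 of the control libraries stood above all of them (adjusted p = 0.284). sdhd-1 had 64.7, 54, 62.3, 58 and 55.1 CPM in the control libraries and 59.3, 51.9, 56.5, 55.3 and 53.2 CPM in pbrm-1(TS-KO). It was below its partner in 5 of 5 pairs, with pair differences from -0.141 to -0.0505 on the log2 scale (adjusted p = 0.397, and 0.186 with the replicate block), although the strains overlapped.

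In complex III, cytochrome c1 (cyc-1), the Rieske iron-sulfur protein (isp-1) and the core protein gene ucr-1 had log2 fold changes of 0.04, -0.04 and -0.02. The second core protein is encoded by a family of 3 genes, and these had values on both sides of 0. ucr-2.1 (chromosome X, 12018429 to 12021206) had 476, 523, 506, 561 and 560 CPM in the control libraries and 516, 574, 524, 565 and 603 CPM in pbrm-1(TS-KO), or 0.08 higher on the log2 scale (adjusted p = 0.436). ucr-2.2 (WBGene00011679; chromosome X, 15173904 to 15178145) had 98.4, 93.8, 99.6, 100 and 104 CPM in the control libraries. In pbrm-1(TS-KO) it had 87.4, 97.2, 85.6, 89.7 and 95.6 CPM, below the partner library in 4 of 5 pairs. The log2 fold change of ucr-2.2 was -0.12 (standard error 0.0476, 95% interval -0.226 to -0.0168), with an adjusted p of 0.146 in edgeR's test and 0.036 in limma-voom. The libraries of replicate 4 made up the pair that went the other way, and the strains overlapped only in that control replicate 4 lay below pbrm-1(TS-KO) replicates 4 and 7. ucr-2.3 had only 9.44, 8.59, 10.7, 11.9 and 11.9 CPM in the control libraries and 10.9, 12.9, 12.4, 12.7 and 11.6 CPM in pbrm-1(TS-KO). Its log2 fold change of 0.20 was the highest of the 35 genes and one of the 2 least precise, with that of asb-1 (95% interval -0.0138 to 0.423, adjusted p = 0.238).

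Per kilobase of exon, ucr-2.1 made up 82.7% ± 0.87 of the summed level of the 3 genes in pbrm-1(control) and 84.3% ± 0.43 in pbrm-1(TS-KO) (SD, n = 5 each). Its control libraries lay between 81.5% and 83.6% and its pbrm-1(TS-KO) libraries between 83.9% and 84.9%. The share of ucr-2.2 was 15.6% ± 0.84 and 13.8% ± 0.38, with control libraries from 14.8% to 16.8% and pbrm-1(TS-KO) libraries from 13.4% to 14.2%. For both genes the shares of the 2 strains did not overlap, although the CPM of each gene did. The shares within a family depend on each other and were compared after the values had been seen, so no test is given. ucr-2.3 held at most 2.11% in every library. Only uniquely mapped reads were counted, so the shares would move with any stretch of sequence that the 3 genes have in common.

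Cytochrome c, the mobile carrier between complexes III and IV, is encoded by cyc-2.1 and by a second gene, cyc-2.2. The latter was listed with the further nuclear subunits and did not pass the filter on low counts. cyc-2.1 had 821, 901, 851, 945 and 923 CPM in the control libraries and 874, 904, 830, 885 and 948 CPM in pbrm-1(TS-KO). The means were 888.2 and 888.3 CPM, and the 95% interval of the log2 fold change ran from -0.112 to 0.112. The spread between libraries of 1 strain exceeded the difference between the strains.

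Of the complex IV genes, 4 were above the control level and 3 below it. Their median log2 fold change was 0.02, and cox-7C had the lowest value of all 35 genes. cox-7C (WBGene00009161; chromosome I, 9773172 to 9774012), a gene for one of the small subunits, had 178, 189, 185, 212 and 203 CPM in control replicates 1, 4, 5, 6 and 7. In pbrm-1(TS-KO) it had 168, 171, 161, 181 and 182 CPM, which was 89.26% of control by the fitted fold change. It was below its partner in 5 of 5 pairs, and the ranges overlapped only because control replicate 1 lay at 178 CPM. On the log2 scale it differed by -0.16 (standard error 0.0566, 95% interval -0.288 to -0.0397), with an adjusted p of 0.104 in edgeR's test, 0.0332 with the replicate block, 0.0315 in limma-voom and 0.0928 in DESeq2. Whether cox-7C was called thus depended on the model. Leaving out libraries gave a call in 0 of 15 fits, with values from -0.19 to -0.13. These fits used edgeR's test without the block on fewer libraries. They called 408 to 1204 of all genes, as against 1299, so they are a weak check of the calls of the other models.

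**Figure D2:**
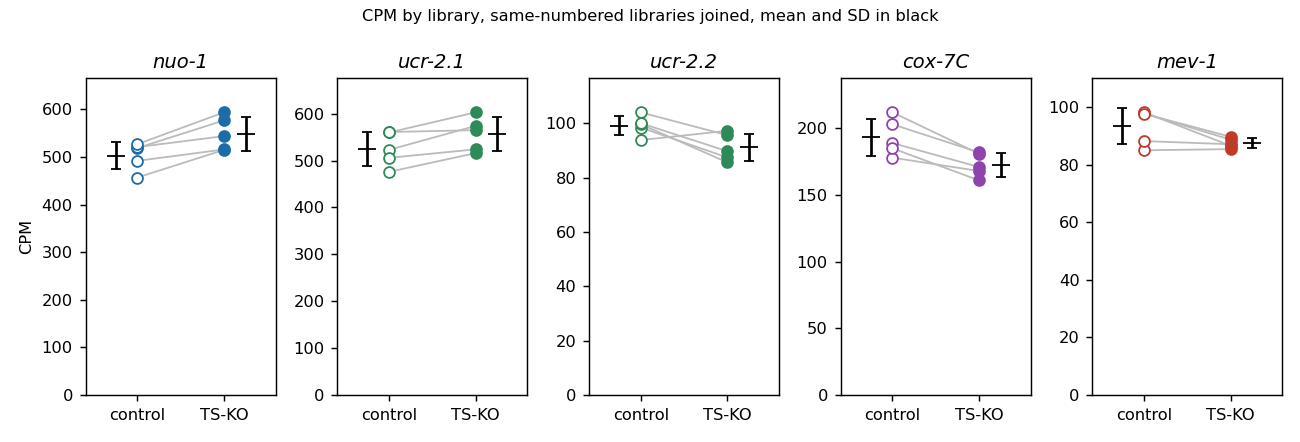
CPM of nuo-1, ucr-2.1, ucr-2.2, cox-7C and mev-1 in each library (open points, pbrm-1(control); filled points, pbrm-1(TS-KO); gray lines join libraries of 1 number; black marks, mean ± SD of 5 libraries), on axes that start at 0. Every line of nuo-1 and ucr-2.1 slopes up and every line of cox-7C slopes down, but in each panel the 2 strains overlap.

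The remaining complex IV genes lay on both sides of the control level. cox-4 had 419, 448, 468, 486 and 484 CPM in the control libraries and 453, 522, 467, 495 and 512 CPM in pbrm-1(TS-KO), where only replicate 5 was not above its partner (log2 fold change 0.09, adjusted p = 0.367). cox-6A was above its partner in 5 of 5 pairs, by between 0.00656 and 0.182 on the log2 scale (adjusted p = 0.378). cox-5A, cox-6C, cox-6B and cox-5B had log2 fold changes of 0.02, 0.03, -0.03 and -0.05. Over all genes tested, 26.8% had a single direction in all 5 pairs; among the 35 genes this held for nuo-1, ucr-2.1 and cox-6A above and sdhd-1 and cox-7C below the control level.

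Complex V, the largest group, was the flattest. Its 10 genes had log2 fold changes between -0.06 and 0.04, with 4 above the control level, 6 below it and a median of -0.01, and none had an unadjusted p under 0.05. The catalytic head genes atp-1 (subunit alpha) and atp-2 (subunit beta) were the most abundant of the 35 in CPM. atp-1 had 2020, 1997, 2111, 2139 and 2160 CPM in the control libraries and 1872, 2048, 1962, 2060 and 2117 CPM in pbrm-1(TS-KO), or -0.05 on the log2 scale (adjusted p = 0.515). atp-2 had 2588 ± 56.7 CPM in pbrm-1(control) and 2577 ± 112 CPM in pbrm-1(TS-KO) (SD, n = 5 each), which put its interval between -0.095 and 0.0827. atp-5, of the peripheral stalk, had 507, 480, 493, 529 and 519 CPM in the control libraries and 500, 556, 496, 511 and 543 CPM in those of pbrm-1(TS-KO), a log2 difference of 0.04 with an adjusted p of 0.600. atp-3, the OSCP subunit that joins head and stalk, atp-4, the coupling factor, and hpo-18, the epsilon subunit of the central stalk, had log2 fold changes of 0.02, -0.02 and 0.04.

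Subunits b and g of the ATP synthase each come from a pair of genes. asb-1, known as the germline form of subunit b, had 15.5, 16.7, 19.4, 21.3 and 15.4 CPM in the control libraries and 15.3, 19.8, 16.2, 15.2 and 18.1 CPM in pbrm-1(TS-KO). asb-2, the form of the soma, had 694, 711, 698, 729 and 742 CPM and 701, 739, 713, 721 and 771 CPM. Per kilobase of exon, asb-2 was 35.2 times as high as asb-1 in pbrm-1(control), and asb-1 held 2.77% ± 0.39 of the pair's level there and 2.6% ± 0.24 in pbrm-1(TS-KO) (SD, n = 5 each). asg-1 had 28, 32, 32.4, 34.3 and 29.1 CPM in the control libraries and 29.5, 31.5, 29.4, 31.3 and 31.6 CPM in pbrm-1(TS-KO). asg-2 had 177, 178, 187, 208 and 192 CPM and 177, 188, 176, 185 and 201 CPM. The share of asg-1 was 14.7% in both strains, with an SD of 0.86 in pbrm-1(control) and 0.36 in pbrm-1(TS-KO). Within both pairs of genes the shares of the 2 strains differed by less than the spread between libraries.

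**Figure D3:**
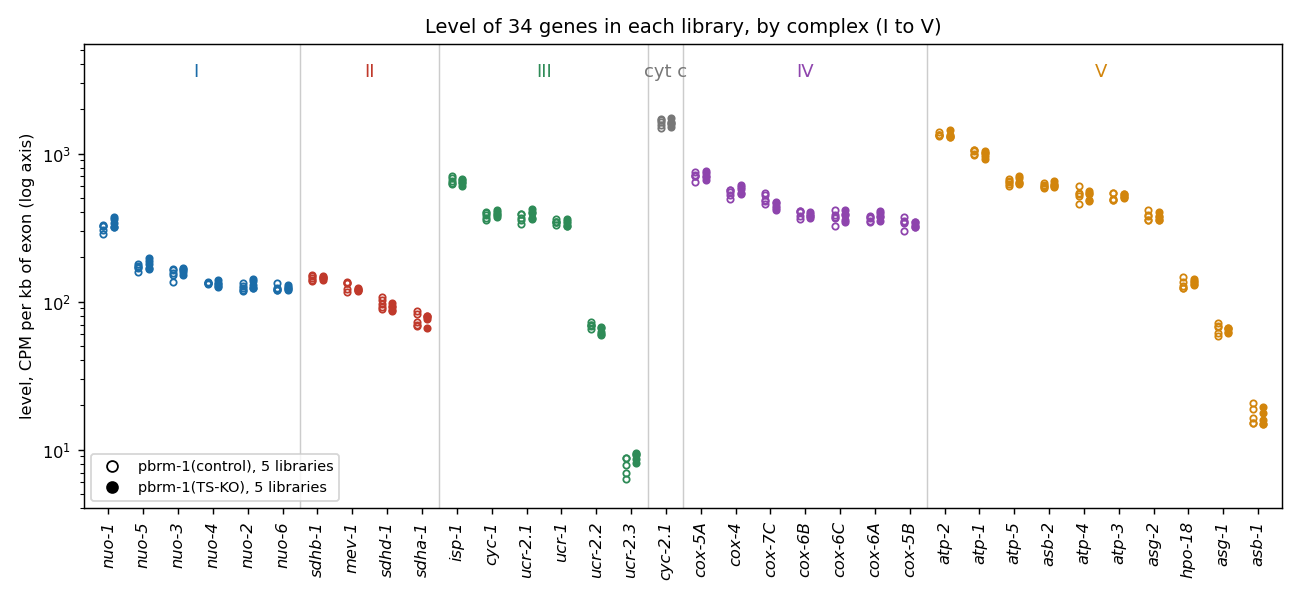
Level of 34 of the 35 genes in each library, in CPM per kilobase of exon on a log axis, grouped by complex and ordered within it (open points, pbrm-1(control); filled points, pbrm-1(TS-KO)). The levels span from 7.765 for ucr-2.3 to 1618 for cyc-2.1 in pbrm-1(control), and the points of the 2 strains lie side by side for every gene shown.

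Most differences in level between the complexes were larger than those between the strains, but complexes III and IV had similar medians. Per kilobase of exon the median level in pbrm-1(control) was 137.6 CPM for complex I, 112.9 for complex II, 355.4 for complex III, 392.6 for complex IV and 519 for complex V. In pbrm-1(TS-KO) the same medians were 143, 105.9, 364, 383.3 and 519.4 CPM per kilobase. The genes of complex I lay between 123.7 (nuo-6) and 313.5 (nuo-1) and those of complex IV between 342.1 (cox-5B) and 702.5 (cox-5A). Complexes III and V each held genes of widely different level, with ucr-2.3 and asb-1 (17.21) at the bottom. Each complex kept its place in the order of medians in both strains, though those of complexes III and IV were close in pbrm-1(TS-KO).

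The level of a complex also varied from library to library. Each gene's log2 level was centered on its mean over the 10 libraries, and the median was taken over the genes of a complex. For complexes I, III, IV and V, control replicate 1 was the lowest of the 10 libraries, at -0.14, -0.10, -0.14 and -0.06, while complex II was highest there, at 0.15. Control replicate 5 was also high for complex II, at 0.12, and pbrm-1(TS-KO) replicate 7 was the highest library for complexes I, IV and V, at 0.15, 0.10 and 0.08. The range over the 10 libraries was 0.289 for complex I, 0.257 for complex II, 0.179 for complex III, 0.244 for complex IV and 0.138 for complex V. Genes of a complex share the library and its scaling, so these positions are a description.

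**Figure D4:**
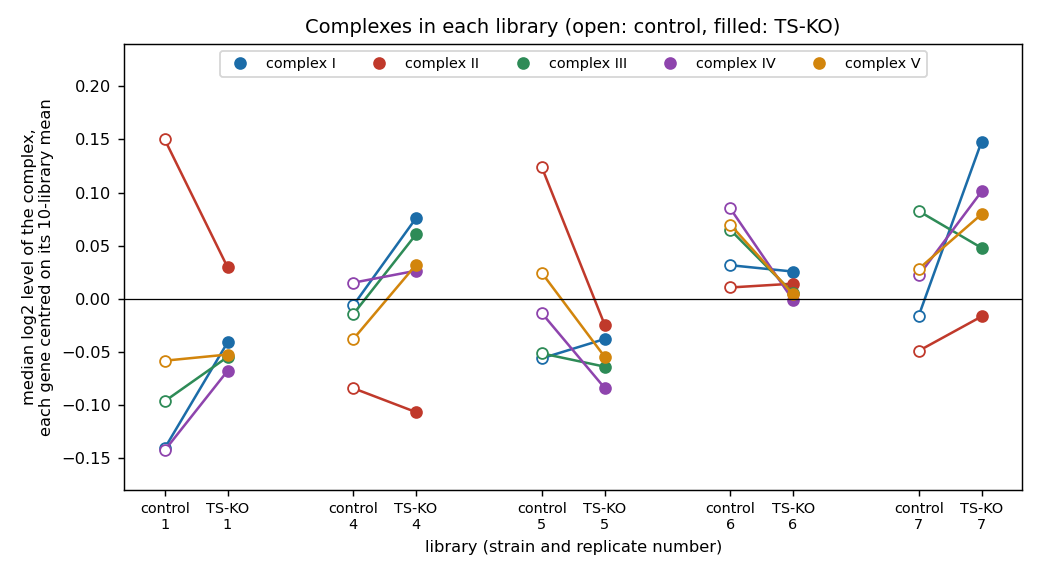
Median log2 level of complexes I to V in each library, each gene centered on its mean over 10 libraries (open points, pbrm-1(control); filled points, pbrm-1(TS-KO); lines join libraries of 1 replicate number). Complex II sits above the others in control replicates 1 and 5 and below them in both libraries of replicate 4, and the lines slope up in some pairs and down in others.

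Within pairs, the median difference over the 35 genes on the log2 scale, pbrm-1(TS-KO) minus pbrm-1(control), was 0.05, 0.06, -0.05, -0.05 and 0.07 for replicates 1, 4, 5, 6 and 7. Replicates 5 and 6 thus went against the other 3. For complex I the pair medians were 0.08, 0.09, 0.0026, -0.05 and 0.12, and for complex II they were -0.12, -0.01, -0.11, -0.01 and 0.03. No complex had the same sign in all 5 pairs.

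Genes that work with the 35 were counted from lists chosen by name. Beside the calls in each of these lists, edgeR's test called 3.44% of all genes tested higher and 4.28% lower. Of 31 further nuclear genes for subunits of the chain, 30 were tested; 0 were called higher and 1 lower, and the median on the log2 scale was 0.0033. With the replicate block 1 was called higher and 0 lower, with DESeq2 1 and 1, and with limma-voom 0 and 2. The gene called was T27E9.2, with 46.35 ± 2.39 CPM in pbrm-1(control) and 40.92 ± 1.44 CPM in pbrm-1(TS-KO) (SD, n = 5 each; log2 fold change -0.18, adjusted p = 0.0473). Its call was lost with the replicate block (adjusted p = 0.0742) and in each of the 15 fits with fewer libraries. Of 12 assembly factors tested, bcs-1, which inserts the Rieske protein into complex III, was called, with 9.111 ± 0.613 CPM in pbrm-1(control) and 11.1 ± 0.831 CPM in pbrm-1(TS-KO) (log2 fold change 0.29, adjusted p = 0.0452). That call was lost in 13 of the 15 fits and with the replicate block (adjusted p = 0.0512). The median of the assembly factors was 0.05, and none was called lower. DESeq2 called 1 of them higher and limma-voom 2.

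None of 8 genes of coenzyme Q synthesis was called in edgeR's test (1 had an unadjusted p under 0.05, DESeq2 called 0 and limma-voom 1), and 7 of the 8 were above the control level, with a median of 0.08 on the log2 scale. For the carriers that exchange ADP for ATP and the ATPase inhibitors, 0 of 5 tested genes were called, 0 had an unadjusted p under 0.05 and neither DESeq2 nor limma-voom called any. In the citric acid cycle 1 of 16 genes was called lower and none higher in edgeR's test. DESeq2 called 2 lower, and limma-voom 2 higher and 2 lower. The gene called in edgeR's test was sucl-1, of succinyl-CoA ligase, at -0.18 on the log2 scale (adjusted p = 0.0271). It lost its call without control replicate 5 (adjusted p = 0.063) and in 10 of 15 such fits in all. Of 8 genes of the mitochondrial unfolded protein response, hsp-6, the mitochondrial Hsp70, was called higher and none lower (2 higher with the replicate block and with DESeq2, and 2 higher and 1 lower with limma-voom). hsp-6 had 614, 606, 555, 521 and 616 CPM in the control libraries and 758, 855, 695, 698 and 781 CPM in pbrm-1(TS-KO), without overlap (log2 fold change 0.38, adjusted p = 0.00736), and it kept its call whichever library or pair was left out.

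The 12 protein-coding genes of the mitochondrial chromosome, which encode the remaining subunits of complexes I, III, IV and V, were also read. Of these, 10 were above and 2 below the control level, while 50.1% of all genes tested were above it. The median of the 12 was 0.14 on the log2 scale. In edgeR's test 2 were called higher and 0 lower, beside 3.44% and 4.28% of all genes tested. WBGene00010963 had 353, 363, 343, 344 and 358 CPM in the control libraries and 387, 398, 442, 383 and 416 CPM in pbrm-1(TS-KO) (log2 fold change 0.20, adjusted p = 0.0228). WBGene00010967 had 537, 537, 497, 466 and 516 CPM and 550, 625, 682, 577 and 615 CPM (log2 fold change 0.26, adjusted p = 0.0305). The strains did not overlap for either gene, and pbrm-1(TS-KO) replicate 5 was the highest library for both. Without control replicate 5 none of the 12 was called (adjusted p = 0.0555 and 0.0659 for these genes), and their median was 0.13. Without control replicate 6 or pbrm-1(TS-KO) replicate 7 again 0 were called, and without control replicate 7 or pbrm-1(TS-KO) replicate 5 there was 1. The summed level of the 12 genes was 8119 ± 227 CPM in pbrm-1(control) and 8830 ± 570 CPM in pbrm-1(TS-KO), and that of the 35 nuclear genes was 14540 ± 465 and 14610 ± 598 CPM (SD, n = 5 each). The difference between the nuclear and the mitochondrial genes was not tested.

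**Figure D5:**
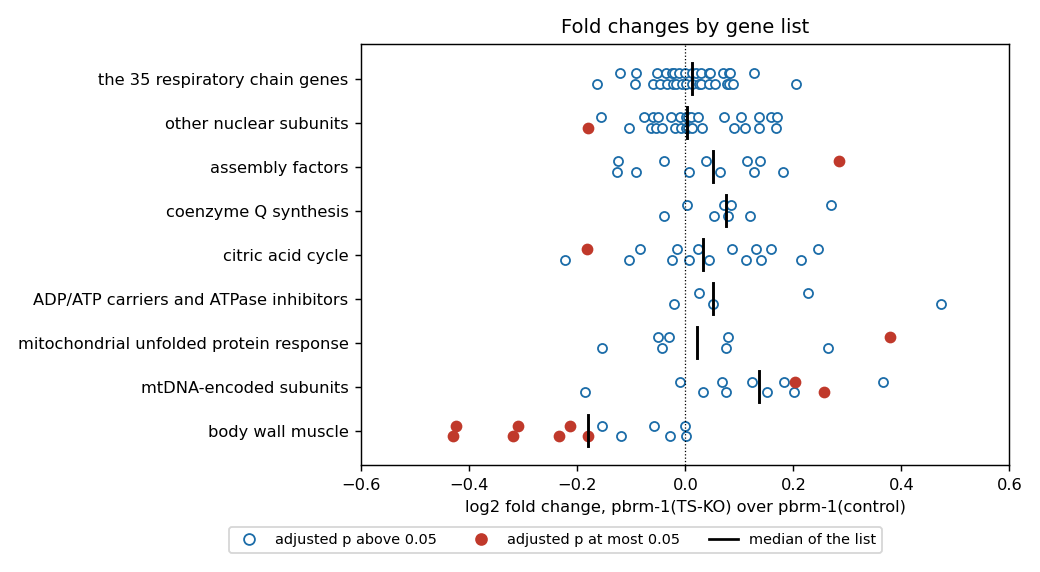
Log2 fold change in pbrm-1(TS-KO) over pbrm-1(control) of every tested gene of 9 lists (open points, adjusted p above 0.05; red points, at most 0.05 in edgeR's test; black bars, median of a list). The 35 respiratory chain genes sit around 0 with no red point, while 7 of 13 body wall muscle genes are red and lie to the left. Most of these red muscle genes had been reported as lower by the paper in the same data, so they are not an independent comparison.

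Markers of muscle and intestine were read in the same libraries. Of 13 body wall muscle genes, 7 were called lower and 0 higher, beside 4.28% of all genes called lower, and the median was -0.18 on the log2 scale. The smallest p-values were those of mup-2, tni-3, lev-11, unc-27 and tnt-2, which encode troponins and tropomyosin. Of these, mup-2 (troponin T) fell from 805.7 ± 33.2 to 599.9 ± 10.2 CPM (SD, n = 5 each, adjusted p = 9.71e-05). The paper had already reported these genes as lower in the same data, so the count of 7 is not independent of it. Among the genes not called, unc-54, unc-22, unc-89 and unc-15 had log2 fold changes of -0.0008, 0.0018, -0.03 and -0.06. Those of myo-3 and pat-10 were -0.12 and -0.15. pbrm-1(TS-KO) replicate 7 stood apart from the other 4 libraries of its strain: with each gene centered on its mean over the 10 libraries, the median of the 13 genes was 0.05 there and between -0.16 and -0.07 in the others, as against 0.05 to 0.12 in the controls. The count called lower in edgeR's test was 4 without pbrm-1(TS-KO) replicate 5 or 6, and between 3 and 8 over the 15 fits with libraries left out. Their summed level ran from 22940 to 27330 CPM over the pbrm-1(TS-KO) libraries and from 25900 to 27340 CPM over the controls, and none of the 13 was at 0. All 5 pharyngeal muscle markers were below the control level, with a median of -0.10. Of the 5, tnt-4 was called lower (log2 fold change -0.20, adjusted p = 0.0349), beside 4.28% of all genes called lower. The paper had already reported tnt-4 as lower in the same data. The call of tnt-4 was lost in 14 of the 15 fits with libraries left out. With the replicate block and with limma-voom, 2 of the 5 were called lower. For 5 intestinal markers, 2 (ifb-2 and vha-6) were called higher and 0 lower, beside 3.44% of all genes called higher. elt-2, ges-1 and act-5 had log2 fold changes of 0.41, -0.24 and -0.40 without passing the test. Limma-voom called 3 of the markers higher and 1 lower. The summed level, most of it from ifb-2 and vha-6, was 2883 to 3129 CPM over the pbrm-1(TS-KO) libraries, as against 2287 to 2509 CPM over the controls. No intestinal marker was at 0. The part of these tissues in the values of the respiratory chain genes was not tested.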

How the data were processed

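Reads were trimmed by the authors, mapped with STAR 2.5.2b to the Ensembl C. elegans genome (WBcel235, written WBcel325 in the methods) and counted within exons by featureCounts of Subread 1.5.2, which kept unique reads. They were deposited as counts per gene, without normalization. The strand setting is not given in the sources used here. Of the 35 genes, 13 share exonic bases with another annotated gene, nuo-3 by 783 bases and the others by between 6 and 61.

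The counts were analyzed in R 4.3.3 with edgeR 4.0.16 (filterByExpr, TMM, quasi-likelihood F test, no covariate, Benjamini-Hochberg adjustment over all genes tested, threshold 0.05), limma 3.58.1 and DESeq2 1.42.0. All 10 columns were used. Standard errors and 95% intervals are approximate, since they come from the size of the fold change and its F value. Log2 levels used a prior count of 2, and exon lengths and coordinates are those of Ensembl release 115. Scripts were tested on simulated data. No libraries were taken as duplicates: over the 20 pairs within strains, chi-square per degree of freedom was between 3.46 and 43.0.

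Replicate numbers were treated as pairing the strains in the pair differences and in the replicate block, because the design text has both collected in parallel on each day. The main test did not use the pairing. Deviations from the strain means correlated at 0.505, 0.283, 0.124, -0.0514 and 0.351 for replicates 1, 4, 5, 6 and 7. The median for libraries of different numbers was -0.0972.

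The result of 1 gene of the 35 is not reported here on its own, though it counts in the totals. The 35 genes and the other lists were chosen with earlier results of these data known. Values in every library are given for genes called, for the 2 genes of each complex with the smallest p and for paralogs, and called genes of the other lists described are named, at most 5 a list by smallest p. Alternatives were DESeq2, RLE size factors, no filter, a minimum of 10 counts per library, the block for replicate number, limma-voom, and leaving out each library and each pair.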

Additional observations from a re-analysis of the deposited data

Results flagged for a closer look

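In 70 groups of 5 libraries, formed by the 35 genes in each strain, a library far from the other 4 was looked for with Dixon's test, which flags about 1 group in 20 by chance. It marked 2. nuo-6 had 86.7 CPM in control replicate 6, as against 77.6 to 80 CPM in the other control libraries. sdha-1 had 160 CPM in pbrm-1(TS-KO) replicate 4, as against 184 to 192 CPM in the other pbrm-1(TS-KO) libraries, and control replicate 4 had 164 CPM.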

How the results depend on the processing

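None of the 35 genes passed the test with DESeq2, with RLE size factors, without a filter, with at least 10 counts in every library, or in any of the 15 fits that left out libraries (lowest and highest count 0). The replicate block called 1 of them and limma-voom 2. Over all genes, 1299 were called, as against 2899 with limma-voom, and between 408 and 1204 when libraries were left out. The count fell by more than 1.5 times without control replicate 6 (839), pbrm-1(TS-KO) replicate 5 (811) or 6 (828), and without replicates 1, 4, 5 or 6 of both strains (781, 746, 529 and 408). The cause was not tested, except that these fits hold fewer libraries. The median log2 fold change of the 35 genes lay between -0.0053 and 0.0309 when libraries were left out and was -0.0294 with limma-voom, where the medians of complexes III and IV were also below 0 (-0.0261 and -0.0329). Limma-voom gave values of the other sign for nuo-6 (-0.0152), cyc-2.1 (-0.0503), cox-5A (-0.0329), cox-6C (-0.0295) and asb-2 (-0.000436). Leaving out libraries turned the sign of genes near 0, with log2 fold changes from -0.0327 to 0.00403 for nuo-4, from -0.0134 to 0.0317 for nuo-6, from -0.0235 to 0.0679 for sdha-1, from -0.0067 to 0.0382 for sdhb-1, from -0.0393 to 0.00575 for ucr-1, from -0.0237 to 0.0284 for cyc-2.1, from -0.00962 to 0.0481 for cox-5A, from -0.0134 to 0.0715 for cox-6C, from -0.0375 to 0.0118 for atp-2, from -0.0657 to 0.0309 for atp-4, from -0.143 to 0.0543 for asb-1, from -0.0565 to 0.0145 for asg-1 and from -0.052 to 0.0173 for asg-2. With the replicate block none of the 34 genes compared changed sign, and cox-7C was the only one that gained a call. ucr-2.3 and asb-1, the genes with the fewest counts, had the widest intervals; the part of depth in this was not tested.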
